A study of Homo sapiens with 3 samples.

Results

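Zinc finger genes crowd human chromosome 19. They were taken here as the protein-coding genes of that chromosome whose symbol is ZNF followed by digits and optional letters, and the rule used no measured value. By that rule 247 of the 58735 genes in the count table were members. Of these, 171 reached a CPM of 1 (counts scaled to a common library total) in at least 1 of 3 libraries and are described below as measured members. The other 76 stayed below that level in each library, and 25 of them had no count at all.

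The RNA came from HaCaT, an immortalised human keratinocyte line labelled as wild type, in serum-free medium for 24 h. One culture was exposed to carbon black (called CB) at a dose of 25 µg/mL, another to S 1650b (called S1650b) at 50 µg/mL, and the control to neither. The series addresses the links of oxidative stress with DNA damage and barrier function under such exposures. Each condition holds 1 library, so no difference has a replicate check and no P value can be given. CB and S1650b differ in both material and dose, so material and dose cannot be told apart where these libraries are compared.

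Most of these genes encode C2H2 zinc finger proteins. In a C2H2 finger a pair of cysteines and a pair of histidines hold a zinc ion, and a row of fingers reads a stretch of DNA. Many members also carry a KRAB box near the start of the protein, which binds TRIM28 (KAP1). TRIM28 brings in the histone methyltransferase SETDB1 and heterochromatin protein 1, and this complex silences transposable elements and some genes. The genes arose by repeated tandem duplication and still lie in clusters of similar copies.

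A C2H2 match was found in the longest coding sequence of each measured member, from 1 to 31 fingers with a median of 12, and 136 of the 171 had a match to the KRAB A box. The median exon GC content was 44.0% in the measured members against 48.3% in all 12222 measured protein-coding genes, while the median exon length was 5065 bases against 5126. The coding DNA of 1 finger and its linker is shown for 3 members that were higher in the S1650b library and 2 that were lower, as the first finger of each gene that a conserved linker follows. Capitals mark the codons of the 2 cysteines and 2 histidines, and sequences are from GENCODE 29 transcripts (GRCh38), all written as the coding strand, which reads as the mRNA does.
ZNF160: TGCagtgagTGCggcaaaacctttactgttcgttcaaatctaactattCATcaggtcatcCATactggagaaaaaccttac
ZNF83: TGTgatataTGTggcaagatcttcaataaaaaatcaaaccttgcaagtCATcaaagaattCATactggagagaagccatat
ZNF780B: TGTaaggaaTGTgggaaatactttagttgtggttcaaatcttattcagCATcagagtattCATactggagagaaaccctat
ZNF787: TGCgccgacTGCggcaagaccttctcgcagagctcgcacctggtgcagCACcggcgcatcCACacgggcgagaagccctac
ZNF628: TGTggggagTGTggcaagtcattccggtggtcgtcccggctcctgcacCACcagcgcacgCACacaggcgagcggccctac

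These stretches lie at chr19:53069595-53069675 (ZNF160), chr19:52614118-52614198 (ZNF83), chr19:40036280-40036360 (ZNF780B), chr19:56088806-56088886 (ZNF787) and chr19:55481305-55481385 (ZNF628), each within 1 coding exon. The last 2 are on the minus (ZNF787) and plus (ZNF628) strand, and the first 3 are on the minus strand. All 5 encode the same frame of cysteines, histidines and linker. The 81 bases hold 40.7% G or C in ZNF160, 33.3% in ZNF83 and 35.8% in ZNF780B, and 67.9% in both ZNF787 and ZNF628. ZNF160 and ZNF780B shared 57 of the 81 bases, while ZNF160 and ZNF628 shared 40.

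The libraries hold 20417744 to 20946139 gene counts. All 7 keratinocyte markers were counted in each, though their summed level was 13689 CPM (control), 12643 (CB) and 5904 (S1650b). KRT5 and KRT14 make up most of that sum, and KRT5 had 7008, 5914 and 2222 CPM in this order. Within the same list KRT17 (547, 488 and 734 CPM), TP63 (144, 162 and 178) and DSG3 (68.5, 48.6 and 119.9) had their highest level in S1650b. Fibroblast markers summed to 93.2, 30.2 and 12.9 CPM in the same order, endothelial markers to 54.8, 28.2 and 44.0, melanocyte markers to 9.76, 8.21 and 9.49, and leukocyte markers to 2.13, 1.34 and 1.21. TYR and DCT were at 0 in each library, and PECAM1 and PTPRC at 0 or 1 count. The endothelial sum rested mostly on CDH5, with 1013, 503 and 920 counts. The fibroblast sum rested mostly on DCN (1067, 153 and 41 counts) and COL3A1 (638, 339 and 83), while COL1A1 had 120, 106 and 156 counts. The part of these markers in the differences below was not tested. In bulk RNA, fewer cells of a type and less RNA per cell cannot be told apart.

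The members were weakly expressed. The median measured member had an FPKM, a level per gene length, of 0.611 (control), 0.525 (CB) and 1.08 (S1650b), where the median protein-coding gene had 5.18, 5.44 and 5.33. Together the 247 members took 0.1002% of the control counts, 0.0934% of the CB counts and 0.149% of the S1650b counts. The per-length level of the median member was thus higher in the S1650b library, while that of the median protein-coding gene was much the same in all 3.

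By mean FPKM the highest members were ZNF787, ZNF581, ZNF358, ZNF524, ZNF865, ZNF428, ZNF579 and ZNF146. In the order control, CB, S1650b, ZNF787 had an FPKM of 17.1, 21.4 and 9.87, ZNF581 of 16.3, 10.5 and 10.6, and ZNF358 of 15.4, 10.4 and 11.4. None of these 8 had a KRAB match, and all but ZNF146 had an exon GC content above 55%. ZNF146 encodes a protein made almost only of fingers, and it had an FPKM of 3.59, 4.73 and 7.95 and an exon GC content of 41.7%. The neighbours in this order ZNF787, ZNF581 and ZNF358 changed places between libraries, so their order is not fixed. Exons of other genes overlap 34.4% of ZNF358, 27.6% of ZNF428 and 23.4% of ZNF581, and the counting is not known to use strand.

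The comparison of S1650b with the control showed the zinc finger genes at higher levels. A fold below is the ratio of CPM scaled by TMM (trimmed mean of M values), with an exact 95% interval that covers counting error only. The call of a higher or lower gene needs a 1.5-fold difference and an interval wholly on that side of 1. By this rule 91 measured members were higher, 15 were lower and 65 were neither, that is 53.2% higher and 8.77% lower. Among all 14709 measured genes 22.0% were higher and 19.4% lower. The median log2 fold of the members was 0.68 (quartiles 0.16 and 1.18) and that of all measured genes was −0.04. With a fold of at least 2, 64 members were higher and 3 lower, where all genes gave 12.1% and 7.86%.

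A gene can pass the expression filter through the library in which it is high. Of the 171 measured members, 22 passed in the S1650b library only, and 17 of these were called higher. The counts below by like genes, KRAB match, finger number and position do not leave these members out. Among the 148 that passed in the control, 73 were higher and 15 lower, with a median log2 fold of 0.61. Without any filter 99 of the 247 members were higher and 15 lower. The shares over all genes under these 2 settings are not given here. The 22.0% of all genes that were higher is under the filter on any library. At the edge of the filter, ZNF490 (20, 14 and 21 counts in control, CB and S1650b), ZNF527 (13, 9 and 21) and ZNF85 (23, 12 and 6) were just inside. ZNF233 (1, 1 and 20), ZNF114 (7, 12 and 20) and ZNF799 (19, 18 and 19) were just outside.

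The highest members by the interval end nearest to 1 were KRAB zinc finger genes, and most lay in 1 stretch of the long arm. ZNF160 (ENSG00000170949, chromosome 19, 53066606 to 53103436), with 20 fingers, had 31 counts (control), 32 (CB) and 216 (S1650b). Its fold in S1650b was 6.14 (4.20 to 9.25), and the CB and control values did not differ beyond counting error. ZNF83 (ENSG00000167766, 52594060 to 52690496), with 14 fingers, had 54, 52 and 288 counts and a fold of 4.70 (3.50 to 6.40). ZNF28 (ENSG00000198538), with 15 fingers, had 60, 54 and 243 counts and a fold of 3.57 (2.68 to 4.81). In these 3 genes the S1650b library was high and the other 2 libraries were alike.

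ZNF468, which lies beside ZNF28 and overlaps it, had 60, 67 and 236 counts and a fold of 3.46 (2.60 to 4.68). Other genes share 55.8% of its 50-base words, so part of its reads may be counted elsewhere or come from a relative. ZNF816 had 10, 15 and 61 counts and a fold of 5.37 (2.73 to 11.8). Both lie in the cluster of ZNF160.

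Outside that cluster, ZNF224 (ENSG00000267680, 44094339 to 44109886), first described as a repressor of the aldolase A gene, had 67, 48 and 280 counts and a fold of 3.68 (2.81 to 4.88), and exons of other genes overlap 40.5% of it. ZNF780B (ENSG00000128000, 40028260 to 40056209), with 21 fingers, had 46, 51 and 193 counts and a fold of 3.69 (2.67 to 5.21). Its neighbour and relative ZNF780A had 52, 44 and 204 counts. ZNF441 had 2, 4 and 24 counts and a fold of 10.6 (2.62 to 92.3), which rests on a control level under the floor of 3 counts. Like ZNF816, it passed the expression filter in the S1650b library only. ZNF146 (ENSG00000167635), the finger-only gene named above, had 295, 378 and 743 counts and a fold of 2.22 (1.94 to 2.55). Each of these had its highest scaled level in the S1650b library.

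The lower members were mostly of another kind. Of the 15, 11 had no KRAB match, and their median exon GC content was 63.0% against 42.4% in the 91 higher members. ZNF787 (ENSG00000142409, 56087366 to 56121280) had 1242 counts (control), 1516 (CB) and 817 (S1650b) and was 1.73-fold lower in S1650b (1.58 to 1.89). ZNF414 had 315, 266 and 171 counts and was 2.09-fold lower (1.73 to 2.53). ZNF628 had 378, 326 and 234 counts and was 1.83-fold lower (1.55 to 2.17). In ZNF414 and ZNF628 the CB library lay between the others, and in ZNF787 it was the highest.

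ZNF524 was 1.73-fold lower, ZNF444, a SCAN-domain zinc finger gene, 1.59-fold, ZNF581 1.54-fold and ZNF575 2.32-fold. The KRAB genes among the 15 were ZNF85, ZNF101, ZNF530 and ZNF324. ZNF85 had 23, 12 and 6 counts and was 4.35-fold lower (1.72 to 13.1), and ZNF101 had 279, 245 and 207 counts and was 1.53-fold lower (1.27 to 1.84). ZNF530 had 49, 49 and 35 counts and was 1.59-fold lower (1.01 to 2.53). Other genes share 33.5% of the 50-base words of ZNF324.

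**Figure D1:**
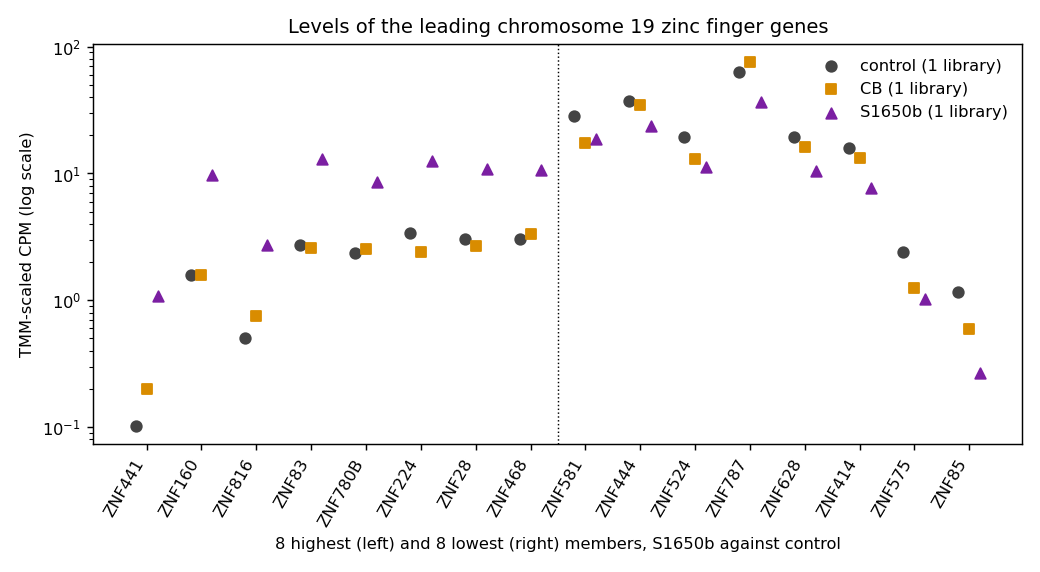
Scaled CPM (log axis) of the 8 highest and 8 lowest members in S1650b against control, 1 point per library (circle control, square CB, triangle S1650b), with no error bar because each condition has 1 library. Left of the dotted line the triangle is the top point of each gene, from ZNF441 at 1.07 CPM to ZNF83 at 12.9 CPM. Right of it the triangle is the lowest point except in ZNF581, where CB is at 17.5 and S1650b at 18.6 CPM.

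Base composition and length ran with the fold in the S1650b library over all genes. Across the 12045 other measured protein-coding genes, Spearman's rho of the log2 fold with exon GC content was −0.48 and with exon length 0.40, and across the 171 members it was −0.58 and 0.33. These are descriptions across genes of the same 2 libraries, and genes are not independent replicates. Of the 149 members with a GC content up to 55%, 91 were higher and 4 lower (median log2 fold 0.82), and of the 22 above 55%, 0 were higher and 11 lower (median −0.58). The finger stretches printed above come from called genes at either end of this range.

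**Figure D2:**
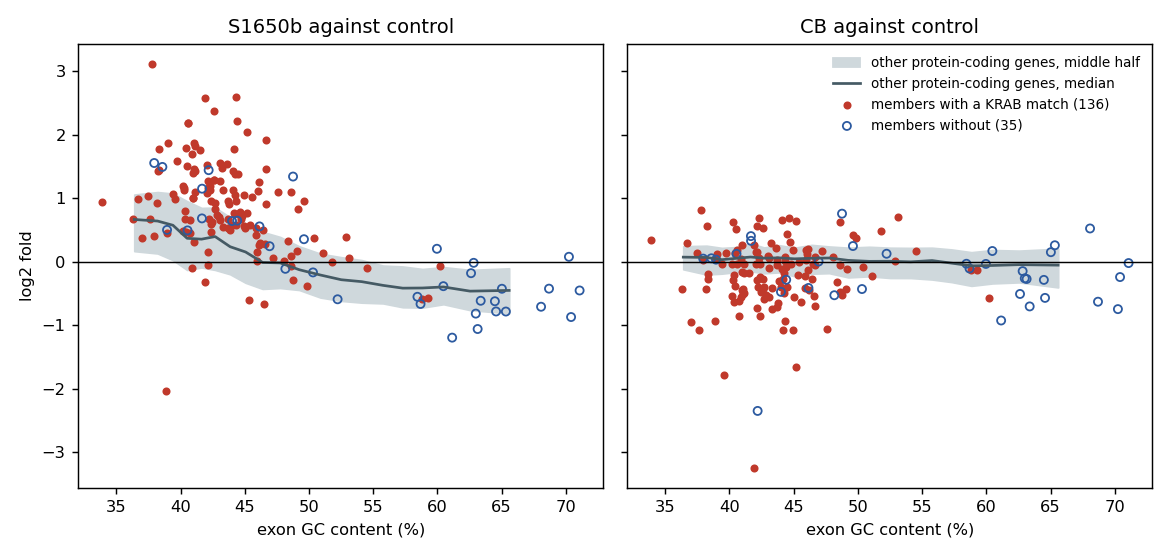
Log2 fold against exon GC content for measured members with a KRAB match (filled, 136) and without (open, 35), over the median and quartiles of other protein-coding genes in 20 GC bins. In S1650b the genome-wide line falls with GC content and the members below 50% GC lie mostly above it. In CB the line runs only from 0.07 in the lowest bin to −0.06 in the highest. The members scatter on both sides there, and 117 of the 171 lay below genes of like length and GC content.

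Genes of like length and GC content were therefore set beside each member: the 50 other measured protein-coding genes nearest to it in exon length and GC content, 5084 distinct genes in all. The median member lay 0.50 above the median log2 fold of its like genes, with 132 members above and 39 below. On average 27.8% of the like genes were higher and 14.2% lower, against 53.2% and 8.77% of the members. Among the zinc finger genes of other chromosomes (212 measured) 37.7% were higher, and the median lay 0.24 above genes of like length and GC content. The other 712 measured protein-coding genes of chromosome 19 were higher in 4.78% and lower in 38.3%, with a median −0.05 from their like genes.

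The distance from like genes depended on expression level. When the nearest genes were chosen by length, GC content and mean expression together, the median member lay 0.27 above them, with 125 members above. With the genome-wide trend of the fold with length and GC content removed, 68 members were higher (39.8%, against 15.9% of all genes) and 4 lower (2.34%, against 15.6%). Of the 91 higher members 67 were still higher, but of the 15 lower members only 3 were still lower, namely ZNF85, ZNF101 and ZNF530. The 11 lower members with a GC content above 55% all lost the call, yet all 11 lay below their like genes, by −0.08 (ZNF581) to −0.74 (ZNF575) with a median of −0.34 on the log2 scale. With the trend removed their log2 folds ran from −0.11 (ZNF581) to −0.70 (ZNF575), with −0.55 in ZNF414 and −0.33 in ZNF787.

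Farthest above their like genes were ZNF441 (2.68), ZNF816 (2.36), ZNF223 (2.14), ZNF160 (2.13) and ZNF615 (2.03), on the log2 scale. Of these only ZNF160 had more than 10 counts in the control, and other genes share 43.7% of the words of ZNF223. ZNF441, ZNF816, ZNF223 and ZNF615 passed the expression filter in the S1650b library only, where they were high. Their place in this order is thus partly set by the filter. Farthest below were ZNF85 (−2.46), ZNF101 (−0.94), ZNF383 (−0.88), ZNF575 (−0.74) and ZNF530 (−0.74). ZNF383, a KRAB gene with an exon GC content of 42.1%, had 99, 61 and 108 counts and a fold of 0.961 (0.725 to 1.27) where its like genes were higher.

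**Figure D3:**
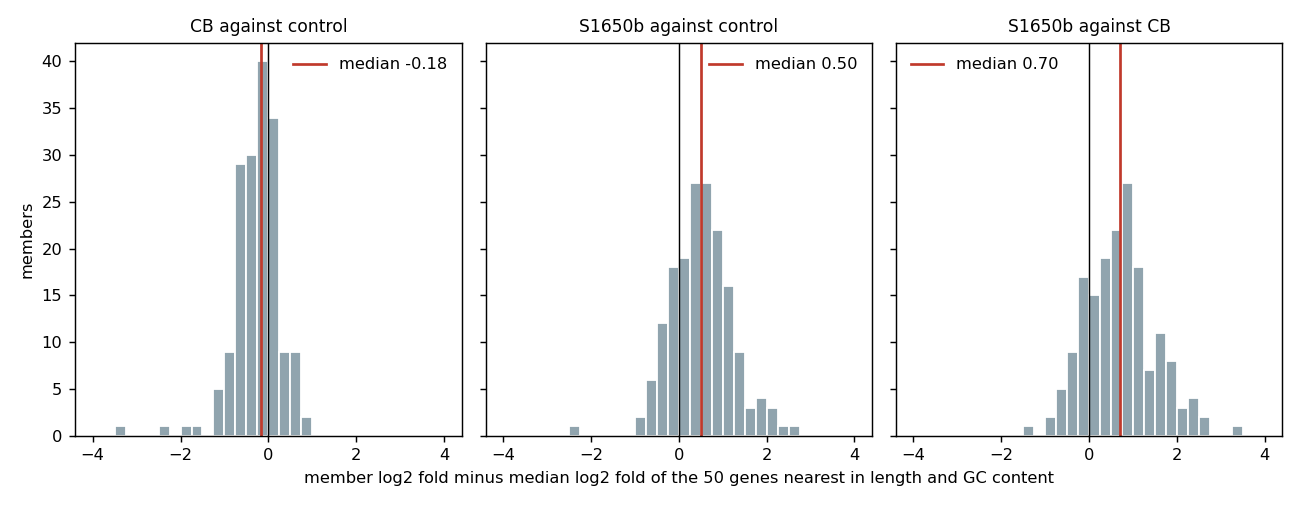
Histograms of the difference between each measured member's log2 fold and the median log2 fold of its 50 nearest genes in length and GC content, in bins of 0.25, with the median as a red line. The median is −0.18 in CB against control, 0.50 in S1650b against control and 0.70 in S1650b against CB.

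The members with a KRAB match differed from the rest in GC content, so both were compared within the members up to 55% GC. There 83 of 133 members with a KRAB match were higher and 3 lower (median log2 fold 0.90), and 8 of 16 without one were higher and 1 lower (median 0.60). Relative to like genes the medians were 0.57 and 0.44. Outside this range only 3 members had a KRAB match (ZNF324B, ZNF324 and ZNF446), so KRAB box and GC content can hardly be told apart over the whole set.

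The number of fingers ran with the fold as well. Among members with a KRAB match and up to 55% GC, 11 of 20 with up to 8 fingers were higher (median log2 fold 0.69), 21 of 43 with 9 to 12 fingers (0.67), 28 of 41 with 13 to 16 (0.90) and 23 of 29 with 17 or more (1.12). The medians relative to like genes were 0.42, 0.39, 0.63 and 0.78 in the same order. Median exon GC content was 44.0, 42.7, 44.2 and 41.9%, and median exon length 6390, 6161, 5065 and 5210 bases. The median of mean FPKM was 1.07, 0.572, 0.569 and 0.576. Across all 171 members Spearman's rho of the fold with finger number was 0.37, and of the difference from like genes 0.32. With mean FPKM these rho values were −0.45 and −0.26. The part of expression level in the run with finger number was not tested.

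**Figure D4:**
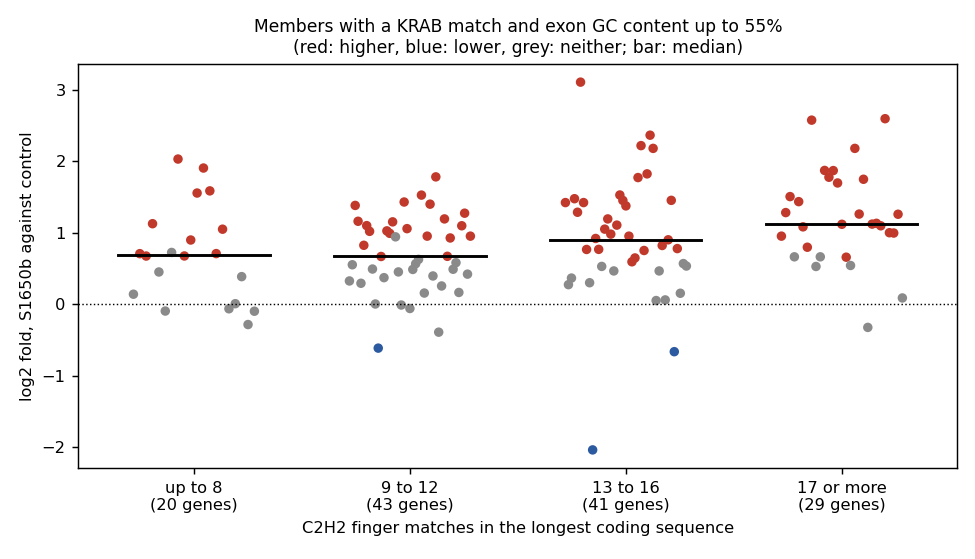
Log2 fold in S1650b against control for the 133 members with a KRAB match and an exon GC content up to 55%, grouped by finger number, 1 point per gene with the group median as a bar. The medians are 0.69, 0.67, 0.90 and 1.12 from the fewest to the most fingers.

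By position, the members form 20 groups when consecutive starts within 500 kb are joined, 7 of them single genes. The group with the largest share of higher members among those with over 10 measured genes lay at chromosome 19, 51571298 to 53580269 (ZNF175 to ZNF331). There 27 of 31 measured genes were higher and 0 lower, with a median log2 fold of 1.12 and 0.82 above like genes, and all 31 had a KRAB match. These counts include genes, ZNF816 among them, that passed the expression filter in the S1650b library only. The next group along the chromosome, 55476332 to 56671783 (ZNF628 to ZNF835), had 0 of 10 higher and 6 lower, a median log2 fold of −0.62 and a difference of −0.09 from like genes, with 1 KRAB match and a median GC content of 64.5%. The groups thus differed in the kind of gene they hold.

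The last group, 57191500 to 58481230 (ZNF264 to ZNF446), had 14 of 38 higher and 2 lower, with a median log2 fold of 0.48. The group at 43525497 to 44500524 (ZNF575 to ZNF180), which holds ZNF224, had 11 of 20 higher and 2 lower. At 36182060 to 37817300 (ZNF565 to ZNF573) 10 of 17 were higher and 0 lower, and at 19668796 to 24129961 (ZNF101 to ZNF254) 9 of 15 were higher and 2 lower. In this last group only 15 of 37 genes were measured, and the median lay just 0.09 above like genes, which were themselves low in GC content (median GC of the members 38.3%).

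**Figure D5:**
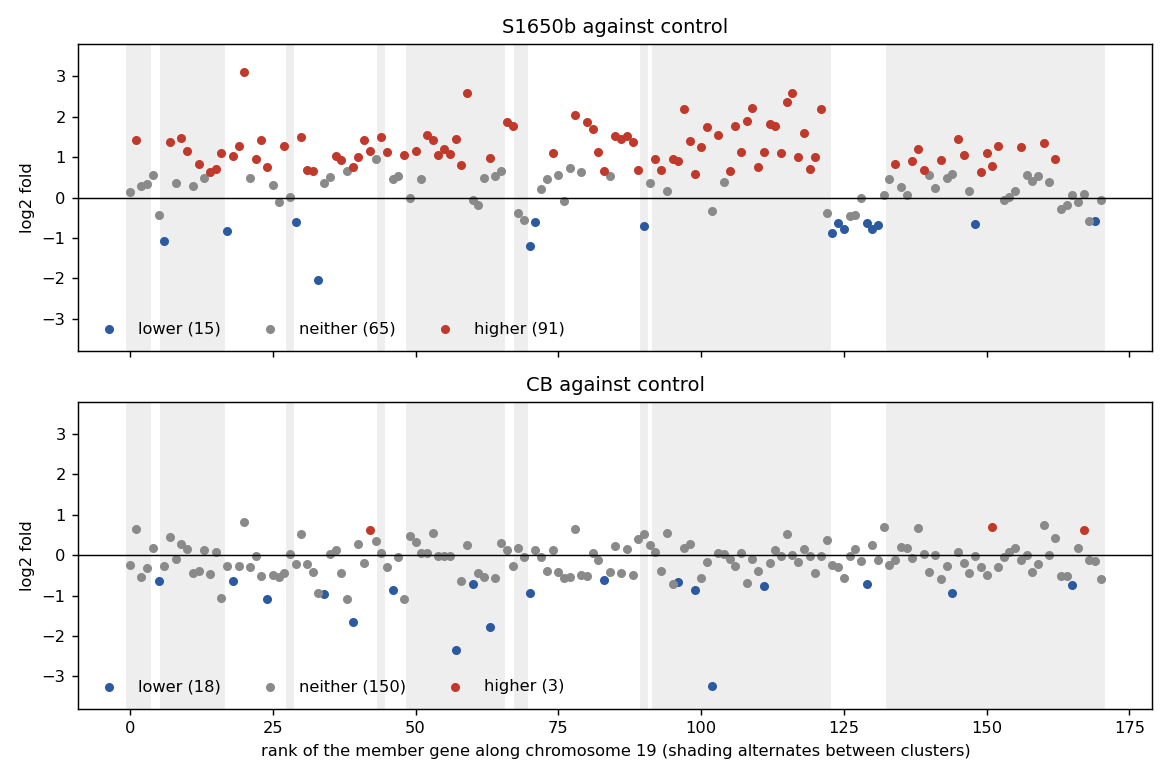
Log2 fold of the 171 measured members in their order along chromosome 19, for S1650b (top) and CB (bottom) against control, coloured by call, with shading that alternates between groups of neighbouring genes. The top panel shows 91 higher and 15 lower genes and the run of 31 genes in which 27 are higher and 0 lower, and the bottom panel shows 3 higher and 18 lower genes spread along the chromosome.

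In the CB library the set lay near the background of all genes or below it. Against the control 3 measured members were higher, 18 lower and 150 neither, that is 1.75% higher and 10.5% lower, where 4.70% of all genes were higher and 10.7% lower. The median log2 fold was −0.13 (quartiles −0.48 and 0.12), the median of all genes was −0.01, and 108 members had a fold below 1. With a fold of at least 2, 0 members were higher and 5 lower, where all genes gave 1.69% and 5.60%. The median member lay −0.18 from genes of like length and GC content and 117 were below theirs. When expression level was also matched the median difference was −0.05 with 80 of 171 above. Higher genes made up 14.3% of the called members and 27.3% with DESeq2 size factors. Among all called genes the share with DESeq2 size factors was 38.4%, and with TMM 691 of all genes were higher and 1568 lower.

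The largest decrease in CB was in ZNF836, a KRAB gene with 24 fingers, which had 32 counts (control), 3 (CB) and 29 (S1650b). The ratio of control to CB was 10.9 (3.41 to 55.6), and the other 2 libraries were alike. This ratio rests on a CB level at the floor of 3 counts, and that of ZNF345 on one below it, so only their intervals limit the size. ZNF345 had 12, 2 and 38 counts, ZNF571 had 18, 5 and 41, and ZNF429 had 38, 12 and 74, with ratios of control to CB of 6.13 (1.36 to 56.4), 3.68 (1.32 to 12.7) and 3.24 (1.66 to 6.80). In these 3 genes the CB library was lowest and the S1650b library highest. ZNF581 was 1.63-fold lower (1.43 to 1.87) and ZNF358 1.55-fold lower (1.37 to 1.76), on 351 and 415 counts in CB.

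The 3 higher members were ZNF551, ZNF675 and ZNF132. ZNF551 had 69, 114 and 135 counts and a fold of 1.62 in CB (1.19 to 2.21). ZNF675, whose protein is known to bind the signalling adaptor TRAF6, had 46, 73 and 117 counts and a fold of 1.55 (1.06 to 2.30). Below the fold of 1.5, ZNF787 was at 1.19 (1.11 to 1.29), ZNF146 at 1.254 (1.07 to 1.47), ZNF296 at 1.44 (1.08 to 1.93), ZNF649 at 1.48 (1.07 to 2.04), ZNF558 at 1.36 (1.08 to 1.703) and ZNF544 at 1.33 (1.08 to 1.65).

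The 2 particle libraries went opposite ways in 9 members, which were lower in CB and higher in S1650b against the shared control: ZNF627, ZNF44, ZNF429, ZNF345, ZNF571, ZNF226, ZNF350, ZNF432 and ZNF600. That is 5.26% of the measured members, against 1.49% of all measured genes. Of the 18 members lower in CB, 9 were higher in S1650b, near the 53.2% of all measured members that were higher there. ZNF345 and ZNF571 passed the expression filter in the S1650b library only. The other way round, higher in CB and lower in S1650b, the count was 0 members, against 0.673% of all genes. With the length and GC trend removed 5 of the 9 kept both calls, and ZNF226, ZNF432, ZNF44 and ZNF571 were no longer called in S1650b (log2 folds 0.16, 0.23, 0.49 and 0.48). ZNF226 had 186 counts (control), 123 (CB) and 334 (S1650b), and ZNF600 had 86, 52 and 215. ZNF350, a KRAB protein known as a partner of BRCA1, had 71, 46 and 151 counts, with a fold of 0.634 (0.428 to 0.932) in CB and 1.87 (1.404 to 2.52) in S1650b. ZNF44 had 52, 25 and 101 counts, and ZNF432 had 61, 34 and 105. With the same control in both comparisons these pairs of folds are not independent. Material and dose also differ together between CB and S1650b, and the part of each in the opposite calls was not tested. The count of both calls over all genes with the trend removed is not given here.

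Set directly against CB, the S1650b library had 109 measured members higher (63.7%) and 6 lower (3.51%), where 26.3% of all genes were higher and 20.6% lower. This comparison changes material and dose together, and the part of each was not tested. With a fold of at least 2, 76 members were higher and 2 lower, where all genes gave 16.1% and 9.46%. Of the 22 members that passed the expression filter in the S1650b library only, 18 were higher. Among the 148 that passed in the control, 90 were higher and 6 lower. The shares over all genes for these 2 subsets are not given here, and the 26.3% and 20.6% are under the filter on any library. The median log2 fold was 0.93, and the median member lay 0.70 above genes of like length and GC content, or 0.39 with expression matched too. Members with a KRAB match were higher in 100 of 136 and lower in 1. ZNF160 had a fold of 6.07 (4.18 to 9.10), ZNF224 of 5.25 (3.85 to 7.29), ZNF83 of 4.98 (3.70 to 6.83), ZNF780A of 4.17 and ZNF701 of 6.41 (3.04 to 15.6). ZNF701 passed the expression filter in the S1650b library only, where it was high. The 6 lower members were ZNF787, at 2.06-fold lower (1.89 to 2.25), ZNF296 at 2.36-fold, ZNF414 at 1.73-fold, ZNF331 at 1.71-fold, ZNF576 at 1.65-fold and ZNF628 at 1.55-fold. Only ZNF331 among them had a KRAB match. With the length and GC trend removed 90 members were higher (52.6%, against 20.3% of all genes) and 7 lower (4.09%, against 19.9%). Of the 109 higher members 86 were still higher. Of the 6 lower members only 3 were still lower, namely ZNF787, ZNF296 and ZNF331.

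The partners of KRAB zinc finger proteins included genes called in both directions in S1650b. Of 30 listed genes of the corepressor complex, heterochromatin, DNA methylation and the HUSH silencing complex, all were measured, and none was higher or lower in CB (median log2 fold 0.06). Among all genes only 4.70% were higher and 10.7% lower in CB, so few calls would fall in a list of this size. In S1650b against control 6 were higher, 9 lower and 15 neither (median −0.32). That is 20% higher and 30% lower, against 22.0% and 19.4% of all genes, so the share of higher genes was near the background. With the length and GC trend removed 2 of the 30 were higher and 7 lower, where all genes gave 15.9% and 15.6%. Against CB, 6 were higher and 11 lower (20% and 36.7%, where all genes gave 26.3% and 20.6%). With the trend removed these were 3 and 9 of the 30, where all genes gave 20.3% and 19.9%. TRIM28 (ENSG00000130726), the corepressor that the KRAB box binds, had 8520, 9724 and 6873 counts and a fold in S1650b of 0.710 (0.688 to 0.733), and SETDB1 had 541, 597 and 776 counts and a fold of 1.26 (1.13 to 1.41), so neither reached 1.5-fold against the control. Against CB, TRIM28 was 1.57-fold lower (1.52 to 1.62) and SETDB1 had a fold of 1.17 (1.05 to 1.30).

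The 6 higher genes were ATRX, a chromatin remodeller (2.45-fold, 2.26 to 2.65), MPHOSPH8 and TASOR of the HUSH complex (2.35-fold and 2.34-fold), RESF1, a SETDB1 partner (2.77-fold), SMARCAD1, a remodeller that binds TRIM28 (2.15-fold), and ATF7IP, which stabilises SETDB1 (1.93-fold). The 9 lower genes were UHRF1 and DNMT1, which maintain DNA methylation (4.64-fold, 4.25 to 5.06, and 2.31-fold, 2.19 to 2.43), CBX5 (heterochromatin protein 1 alpha, 1.65-fold), CBX1, CHD3, RBBP4, RBBP7, MTA2 and EHMT2. These folds are before removal of the length and GC trend, after which only 2 of the 30 listed genes were higher and 7 lower.

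The promoters differed less in base composition than the exons. RefSeq promoter windows (GRCh38.p14, 300 bases, the first listed per symbol) were found for 154 of the 171 measured members, 81 of them higher in S1650b, 14 lower and 59 neither. Median GC content was 61.0% with a median of 22 CG dinucleotides, against 58.3% and 14 in all 27305 promoters. It was 59.3% for the higher members and 63.2% for the lower ones. The 250 bases before the start are shown for the ZNF160 and ZNF787 genes, whose finger repeats differ so much in composition, with CG dinucleotides in capitals.
ZNF160: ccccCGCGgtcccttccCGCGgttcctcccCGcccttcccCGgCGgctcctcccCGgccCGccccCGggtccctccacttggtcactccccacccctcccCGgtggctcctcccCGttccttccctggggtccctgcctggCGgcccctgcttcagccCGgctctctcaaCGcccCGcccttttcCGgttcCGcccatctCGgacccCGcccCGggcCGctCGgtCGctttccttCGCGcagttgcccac
ZNF787: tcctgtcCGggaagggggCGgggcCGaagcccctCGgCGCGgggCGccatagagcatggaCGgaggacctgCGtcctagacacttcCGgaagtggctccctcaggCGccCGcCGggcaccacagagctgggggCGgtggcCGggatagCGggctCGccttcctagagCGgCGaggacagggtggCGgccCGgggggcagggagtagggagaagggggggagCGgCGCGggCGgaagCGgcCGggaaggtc

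Both run 5′ to 3′ on the minus strand, at chr19:53103423-53103672 (ZNF160) and chr19:56121296-56121545 (ZNF787), with a GC content of 75.6% and 74.8% and 26 and 27 CG dinucleotides. The motif GCGTG, the core that the aryl hydrocarbon receptor reads, was searched on both strands and was in 51.9% of member promoters and 36.3% of all promoters. By call it was in 49.4% of the promoters of higher members, 57.6% of those in neither direction and 42.9% of the lower ones, and it had 0 matches in the promoter stretches of ZNF160 and ZNF787 printed above. TGACTCA, an AP-1 site, was in 2.60% of member promoters against 4.92% of all, and TGACNNNGC, the core of the antioxidant response element, in 12.99% against 13.6%. TATAAA was in 2.60% against 12%. A match is a description of the letters and not a bound site.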

How the data were processed

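Whole-number counts per Ensembl gene and FPKM values were used as deposited by the authors for 3 libraries, without replicates. Per the labels' protocols, Trizol was used for the RNA and a NEBNext Ultra kit for the libraries. CASAVA 1.7 and the mouse builds mm8 and mm9 are named in the submitters' processing notes, although the identifiers are human. Aligner, counter, true build and strand setting are unknown because not given in the sources used here. Each identifier occurs in GENCODE 29 (GRCh38), which gave positions, gene types, exon length and GC content (union of exons), overlap and coding sequences. Symbols came from a gene name table, or from GENCODE where it had none.

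Genes with at least 1 unscaled CPM in at least 1 library were kept. TMM factors (edgeR 4.0.16, R 4.3.3) were 0.952, 0.960 and 1.09 for control, CB and S1650b. Folds have exact conditional binomial (Clopper-Pearson) 95% intervals, and 0.5 counts were added before log2. Because PCR copies were not marked by molecular identifiers, intervals cover counting error only. Length and GC trends were removed by lowess (span 30%). Finger and KRAB matches are patterns in translated coding sequences, so variant boxes can be missed. Shared words are 50-base words of a member's transcripts that also occur in another gene. Scripts used Python 3.11.15, scipy 1.17.1 (intervals), statsmodels 0.14.6 (lowess) and Biopython 1.88 (translation). The procedure was tested on simulated data.

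Named members were the 8 highest and 8 lowest per comparison by the interval end nearest to 1, the 8 with the highest mean FPKM, those called in opposite directions by both particles, the 5 farthest above and below genes of like length and GC content, and called corepressor genes. ZNF324, ZNF324B, ZNF446, ZNF132 and those at the filter's edge were named after their values were seen. The members and lists were chosen with earlier results of these data known. Alternatives were other scalings, FPKM with 0.1 added, other filters, a fold of 2, 5 counts added, trend removal, other sets of like genes, and leaving out members with overlap or shared words above 20%.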

Additional observations from a re-analysis of the deposited data

How the results depend on the processing

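No paired analysis was possible because each condition has 1 library, and for the same reason no library could be left out. The median log2 fold of the members kept its direction in each comparison under every alternative run, but not its size: in CB it went from −0.13 to −0.05 with FPKM and −0.04 with a filter of 1 count, and in S1650b against control from 0.68 to 0.43 with length and GC trends removed. No called value of a named member changed sign with scaling, FPKM or trend removal. Scaling by total counts moved the median of all genes by 0.20 in S1650b against control and 0.19 in S1650b against CB. Counts moved by over 1.5 times as follows, against 3 higher and 18 lower (CB against control), 91 and 15 (S1650b against control) and 109 and 6 (S1650b against CB). With DESeq2 1.42.0 size factors, 6 members were higher in CB. With total counts, 7 were lower in S1650b against control and 3 in S1650b against CB. With the upper quartile, 9 were lower in S1650b against control, and with FPKM, where no interval applies, 10 in S1650b against CB. With a filter of 5 CPM, which leaves fewer genes, 9 were lower in CB, 56 higher in S1650b against control and 62 higher in S1650b against CB. With a fold of 2, 0 were higher and 5 lower in CB, 3 were lower in S1650b against control and 2 in S1650b against CB. With length and GC trends removed, 4 were lower in S1650b against control. Leaving out members with shared words and a filter on mean CPM were chosen after seeing the data and moved no count by over 1.5 times. With a median of 57 to 122 counts per measured member and library, folds near 1.5 are often not detectable.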
